A study of Macaca mulatta with 8 samples.

Results

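The tripartite motif (TRIM) genes were followed in primary microglia of rhesus macaques exposed to a Toll-like receptor 4 agonist. The agonist was given with or without MRS2578, an antagonist of the purinergic receptor P2RY6. Members were all rows of the gene count lists whose symbol starts with TRIM and a digit, which gave 56 of 35432 genes. Of these, 37 had 10 or more counts in at least 4 of the 8 libraries and entered the comparison. TRIM family genes with other symbols, such as PML, MEFV, MID1 and MID2, fall outside this rule, and TRIM2, TRIM31 and TRIM34 were not analysed here.

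Microglia were isolated from frontal subcortical white matter of 4 adult animals, named R07110 (male, 13 years), R12016 (male, 9 years), R02046 (female, 19 years) and R14143 (female, 6 years). The cells were kept in culture with the growth factor M-CSF for 8 days, and on day 7 they received 10 µg/mL ultrapure lipopolysaccharide (uLPS) for 16 h. In 1 of the 2 cultures of each animal this followed a 1 h pre-incubation with 5 µM MRS2578. The study describes MRS2578 as a selective but not fully specific P2RY6 antagonist. Each animal thus gave 1 library with uLPS alone and 1 with uLPS and MRS2578. No library without uLPS was analysed here, so the values below describe TRIM expression under TLR4 stimulation and not its induction. The labels do not say whether the cultures with uLPS alone received the solvent of MRS2578. The study's methods state that controls with this solvent, DMSO, accompanied every MRS2578 assay, without naming the libraries used here.

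TRIM proteins share an N-terminal arrangement of a RING finger, 1 or 2 B-box domains and a coiled coil, and most act as E3 ubiquitin ligases through the RING finger. The C-terminal part differs between members and selects what the ligase acts on, most often through a PRY-SPRY domain. Several TRIM genes are induced by interferon, restrict viruses in the infected cell, or set the strength of the signaling that runs from Toll-like receptors and nucleic acid sensors to NF-κB and IRF transcription factors.

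Sequencing depth, labels and cell identity bear on every value below. Total counts ranged from 9231109 to 32790348 per library, and 3 counts corresponded to 0.0915 to 0.325 CPM (counts per gene, scaled to a common library total). A second list of expression values from the study gave the 2 R02046 libraries the opposite conditions to those in the labels, whereas the other 6 libraries had the same condition in both. Counts of calls and log2 fold changes are therefore given as labelled, with the R02046 libraries exchanged, and without R02046. Of the microglia markers, CSF1R reached 1004 to 1471 CPM, whereas TMEM119 and CX3CR1, markers of microglia in the intact brain, were at most 0.316 and 2.21 CPM. Fibroblast markers (COL1A1, COL1A2, DCN and LUM) summed to 80.5 to 982 CPM with uLPS alone and 185 to 398 CPM with MRS2578. Markers of oligodendrocytes summed to 223 to 407 CPM over all libraries, those of endothelial and mural cells to 157 to 294 CPM, and those of astrocytes to 69.0 to 187 CPM. Summed levels of 5 lymphocyte markers and of 3 neuron markers stayed below 1 CPM in every library. The part of other cells in the TRIM values was not tested. In bulk RNA, fewer cells of a type and less RNA per cell cannot be told apart.

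Promoters of the interferon-inducible members TRIM21, TRIM5 and TRIM26 are shown first, and the group they belong to is described in detail below. Among the tested members of that group, only these held a match to the sequence pattern searched here. TRIM21 is a cytosolic antibody receptor with ubiquitin ligase activity, TRIM5 is the retroviral capsid restriction factor, and TRIM26 is a ligase that acts on antiviral signaling. A tandem GAAA pattern (GAAA, any 2 bases N, and GAAA again, on either strand) was searched in the 250 bases before and 50 bases after each transcript start of the RefSeq annotation of the rhesus genome build Mmul_10. The pattern is a simple form of the sequence recognised by interferon regulatory factors. In the windows below, written 5′ to 3′ along the gene's strand, capitals mark every base covered by a match.
TRIM21, chr14:64192262-64192561, plus strand: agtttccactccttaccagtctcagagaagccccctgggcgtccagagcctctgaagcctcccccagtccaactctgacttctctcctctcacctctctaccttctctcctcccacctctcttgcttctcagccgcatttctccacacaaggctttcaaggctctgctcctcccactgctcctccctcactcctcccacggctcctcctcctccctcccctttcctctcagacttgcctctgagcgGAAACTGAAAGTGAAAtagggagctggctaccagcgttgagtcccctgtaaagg
TRIM5, chr14:62539438-62539737, plus strand: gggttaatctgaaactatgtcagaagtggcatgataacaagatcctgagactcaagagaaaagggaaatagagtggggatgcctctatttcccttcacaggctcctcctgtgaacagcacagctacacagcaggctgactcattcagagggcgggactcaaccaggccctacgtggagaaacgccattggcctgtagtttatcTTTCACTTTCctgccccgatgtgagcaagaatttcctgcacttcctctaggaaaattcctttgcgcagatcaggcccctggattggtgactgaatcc
TRIM26, chr4:139674178-139674477, plus strand, at a start that is not the outermost one: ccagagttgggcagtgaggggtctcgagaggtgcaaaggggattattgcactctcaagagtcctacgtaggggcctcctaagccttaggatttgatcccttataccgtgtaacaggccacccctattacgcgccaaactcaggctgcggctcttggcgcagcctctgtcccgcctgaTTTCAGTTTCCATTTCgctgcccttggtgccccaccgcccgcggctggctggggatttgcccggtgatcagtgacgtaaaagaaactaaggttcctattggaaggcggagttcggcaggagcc
The TRIM21 window held 2 overlapping matches, the first of them beginning 4 bases before the transcript start and running across it. TRIM5 had 1 match, 47 bases before the start, on the opposite strand. In TRIM26, 2 overlapping matches on the opposite strand began 73 and 67 bases before the start.

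Taking the outermost start of each gene, 4 of the 53 TRIM genes with RefSeq coordinates held the pattern (7.55%), against 729 of 20787 protein-coding genes (3.51%). Over any annotated start, the pattern was present in 8 of 53 TRIM genes (15.1%) and in 1303 of 20787 genes (6.27%), and genes with more starts have more windows. Besides TRIM21, TRIM5 and TRIM26, these were TRIM9, TRIM16, TRIM32, TRIM36 and TRIM44. The other tested interferon-inducible members, TRIM14, TRIM22, TRIM25, TRIM38 and TRIM56, held no match at any annotated start. A match describes the letters of the window only, and binding was not measured.

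TRIM transcripts made up 0.208% to 0.255% of all counts per library, and the 8 highest members per length held 67.3% of all TRIM counts. CPM values scaled by the trimmed mean of M values (TMM) were divided by the length of the annotated exons in kb to compare levels between genes. On this scale, 16 members exceeded 10 CPM per kb, 16 lay between 1 and 10, and 5 tested members were below 1. The order was led by TRIM72 with a mean of 104 CPM per kb over the 8 libraries, TRIM22 with 80.6, TRIM28 with 62.7, TRIM25 with 49.3, TRIM38 with 42.9, TRIM14 with 34.7, TRIM8 with 31.8 and TRIM27 with 25.2. Neighbours in this order overlapped over the libraries, such as TRIM72 (82.5 to 121 CPM per kb) with TRIM22 (61.9 to 98.8), and TRIM25 (38.8 to 72.6) with TRIM38 (34.3 to 65.6). The highest expressed members thus included interferon-inducible genes (TRIM22, TRIM25, TRIM38 and TRIM14), the chromatin cofactor TRIM28 and the NF-κB pathway ligases TRIM8 and TRIM27.

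**Figure D1:**
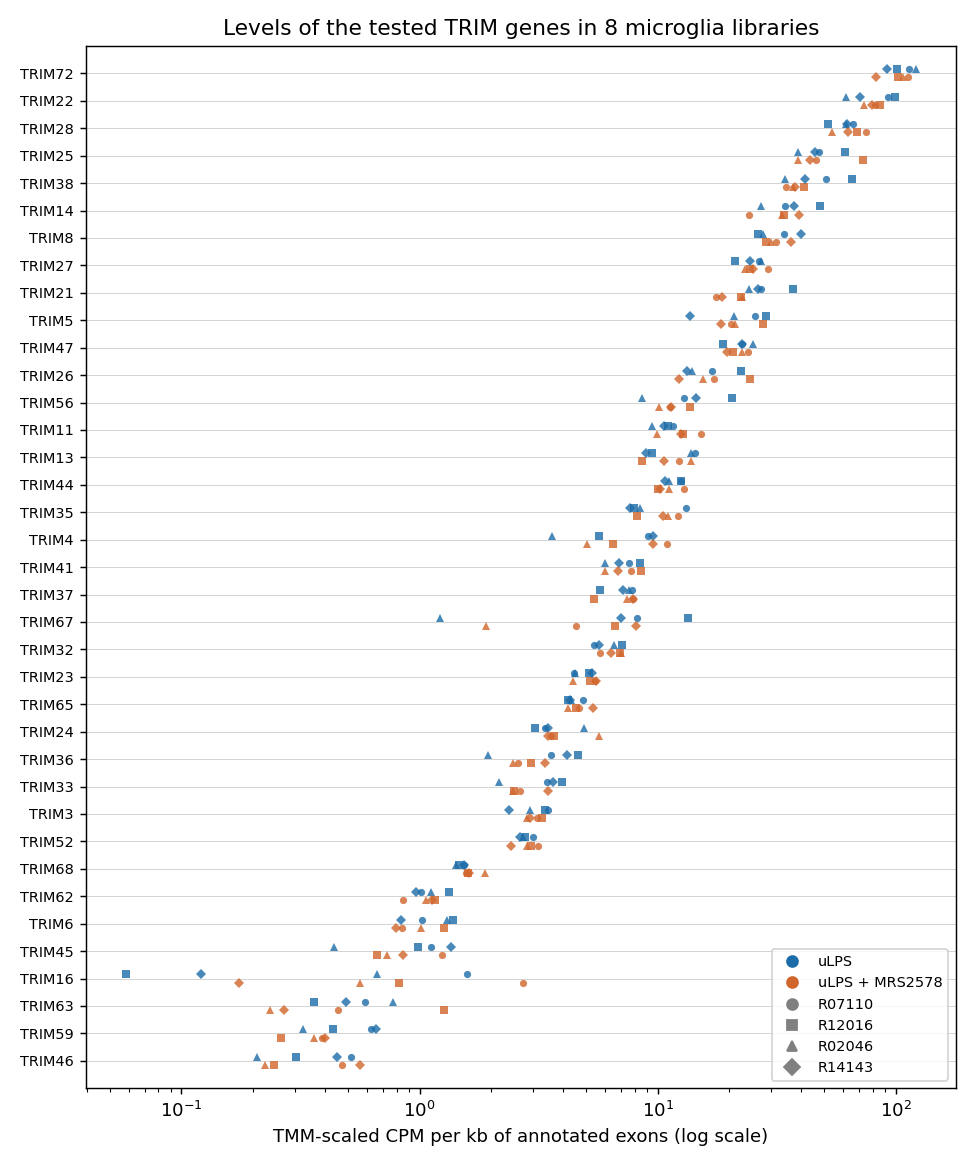
TMM-scaled CPM per kb of annotated exons (log axis) of the 37 tested TRIM genes, ordered by their mean, with 1 point per library. Blue marks uLPS, orange uLPS with MRS2578, and the marker shape gives the animal. Levels run from TRIM72 at the top to TRIM46 at the bottom, and TRIM16 and TRIM67 have the widest spread of points.

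TRIM72 was the member with the highest level per length, although it is known from striated muscle, where it takes part in membrane repair. It reached 266, 236, 283 and 215 CPM with uLPS in R07110, R12016, R02046 and R14143, and 262, 239, 249.99 and 192 CPM with uLPS and MRS2578 in the same order. Other members known from striated muscle were near or at 0: TRIM54 had no count in any library, TRIM55 had 1 count in all, and TRIM63 averaged 0.69 CPM. In RefSeq, TRIM72 spans chr20:28647432-28659158 on the plus strand. Its log2 fold change was -0.086 (SE 0.091) as labelled, 0.0039 exchanged and -0.054 without R02046. The length used for TRIM72 is that of RefSeq, and what the TRIM72 row covers in the authors' annotation was not tested.

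The 19 members that were not tested were close to the detection limit. TRIM10, TRIM15, TRIM42, TRIM54, TRIM61 and TRIM75P had no count in any of the 8 libraries, and the other 13 had at least 1 count. TRIM63 was the member just inside the threshold, with 4 to 25 counts per library and 10 or more in 4 libraries. TRIM9 and TRIM40 were just outside, with 10 or more counts in 1 library each (23 and 13 counts).

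Members were also compared by position and domain structure. Of the 53 TRIM genes with RefSeq coordinates, 10 lie on chromosome 14, among them TRIM22, TRIM5 and TRIM6, which lie within chr14:62515425-62655418, as well as TRIM21, TRIM68 and TRIM3. Members with a PRY-SPRY domain as their only C-terminal domain (class C-IV) made up 19 of the 37 tested genes, with a median level of 16.99 CPM per kb. In comparison, the 3 tested members with a COS box, a fibronectin type III domain and PRY-SPRY (class C-I: TRIM36, TRIM46 and TRIM67) had a median of 3.21 CPM per kb, and the 3 with a PHD finger and bromodomain (class C-VI: TRIM24, TRIM28 and TRIM33) one of 3.88.

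To determine whether MRS2578 altered TRIM expression in uLPS-exposed microglia, both libraries of each animal were compared in edgeR by the quasi-likelihood test, blocked on the animal. As labelled, 0 of 37 TRIM members passed a Benjamini-Hochberg adjusted p of 0.05, and the background was 0 of 12267 genes tested (0%). At an unadjusted p under 0.05, 1 member (TRIM21) and 643 of all genes (5.24%) were below the threshold, and a DESeq2 Wald test called 0 members and 1 gene. The median log2 fold change of the members was 0.0033, beside -0.011 over all genes tested, and 17 of 37 members lay below 0, beside 52.4% of all genes. The 95% intervals of 21 members lay inside -0.5 to 0.5 on the log2 scale, and those of 34 lay inside -1 to 1.

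With the R02046 libraries exchanged, 77 of 12267 genes (0.628%) were called by edgeR's quasi-likelihood test with Benjamini-Hochberg adjustment, 64 of them lower and 13 higher with MRS2578. TRIM members were not among them (0 of 37). At an unadjusted p under 0.05 there were 9 members, beside 16.4% of all genes: TRIM14, TRIM21, TRIM33, TRIM36, TRIM38, TRIM56, TRIM59 and TRIM67 with lower values under MRS2578, beside 9.53% of all genes, and TRIM16 with higher ones, beside 6.9%. The median log2 fold change was then -0.0031 for the members and 0.0016 for all genes, and 19 of 37 members lay below 0, beside 49.8% of all genes. The smallest adjusted p among members was 0.113, for TRIM36. Without R02046, 0 members and 0 of 12154 genes (0%) were called, and at an unadjusted p under 0.05 there were 8 members, beside 13.6% of all genes. Of these, 6 had lower values under MRS2578 (TRIM21, TRIM33, TRIM36, TRIM38, TRIM56 and TRIM59), beside 7.93% of all genes, and TRIM11 and TRIM16 had higher ones, beside 5.67%. This comparison shares 6 of its libraries with the exchanged one.

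**Figure D2:**
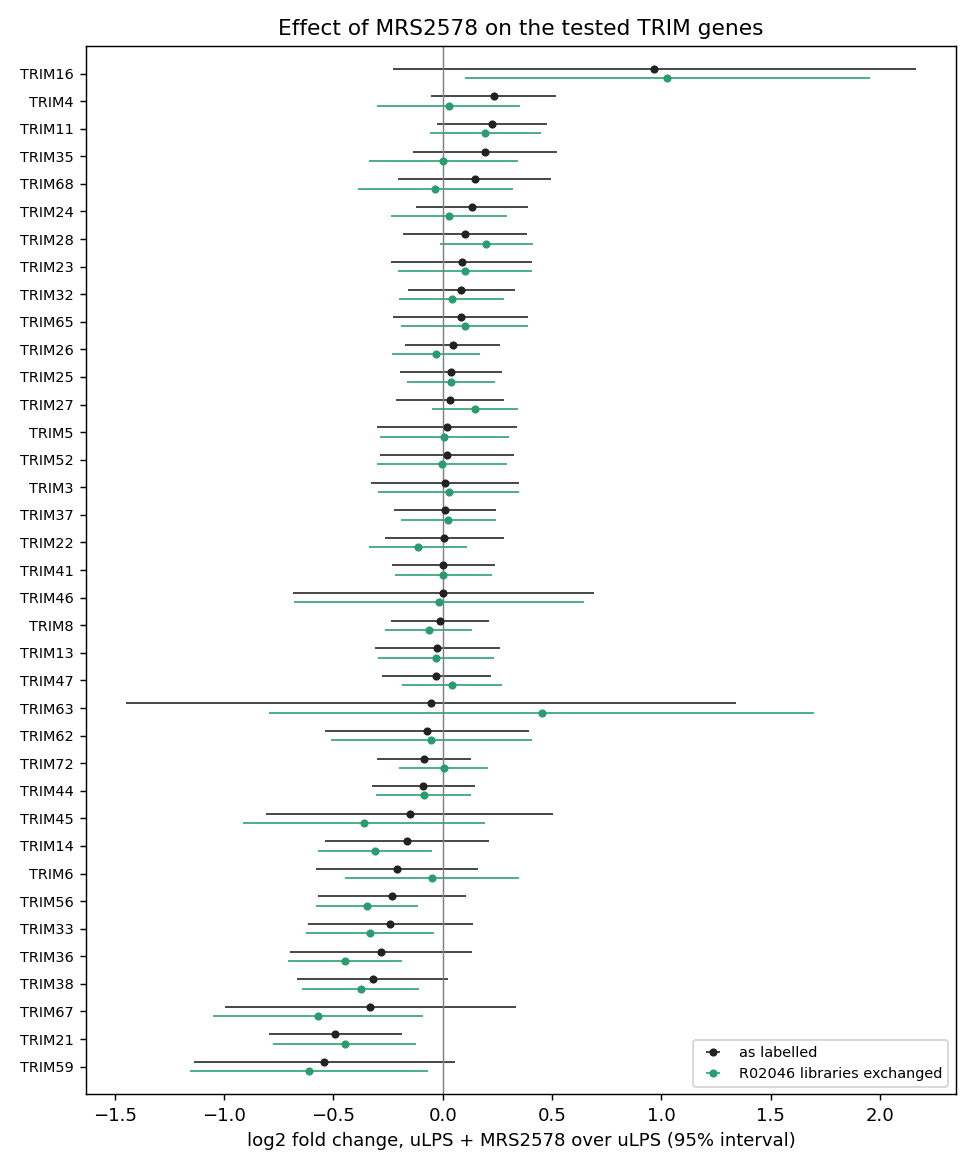
Log2 fold change of the 37 tested TRIM genes between uLPS with MRS2578 and uLPS alone, with 95% intervals from edgeR's quasi-likelihood fit, as labelled (black) and with the R02046 libraries exchanged (green). As labelled, the TRIM21 interval is the only one that does not cover 0, and TRIM16 and TRIM63 have the widest intervals.

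Individual animals did not move in a common direction across the family. As labelled, MRS2578 went with lower values of 21 of the 37 members in animal R07110, of 19 in R12016, of 14 in R02046 and of 18 in R14143. The shares of all genes tested that were lower were 49.7%, 50.2%, 50.1% and 53.2% in the same order. In R07110, R12016 and R14143 alike, 7 members were lower, beside 19.7% of all genes, and another 7 were higher, beside 16.9%. Only TRIM6 and TRIM21 were lower in all 4 animals as labelled (6.52% of all genes), and TRIM4, TRIM11 and TRIM68 were higher in all 4 (6.37%). The groups did not overlap for 2 members, TRIM21 and TRIM68, beside 1.11% of all genes. With the R02046 libraries exchanged they did not overlap for 0 members, beside 2.98%.

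Among the interferon-inducible TRIM genes, 8 of the 10 listed were tested: TRIM5, TRIM14, TRIM21, TRIM22, TRIM25, TRIM26, TRIM38 and TRIM56. None was called as labelled, exchanged or without R02046, beside 0%, 0.628% and 0% of all genes. TRIM69 was below the count threshold and TRIM34 was not analysed here. Of the 8, 4 had a log2 fold change below 0 as labelled, with a median of -0.078 (all genes 52.4% and -0.011), 6 with the R02046 libraries exchanged, with a median of -0.21 (all genes 49.8% and 0.0016), and 5 without R02046, with a median of -0.19 (all genes 50.6% and -0.0039). In R07110, R12016 and R14143 alike, TRIM21, TRIM38 and TRIM56 had lower values with MRS2578, 3 of 8 beside 19.7% of all genes.

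TRIM21 measured 48.05, 65.6, 42.8 and 46.7 CPM with uLPS in R07110, R12016, R02046 and R14143, and 31.1, 39.7, 40.0 and 33.0 CPM with uLPS and MRS2578. All 4 values with uLPS alone lay above all 4 with MRS2578, and R02046 showed the smallest difference. The log2 fold change was -0.49 (SE 0.13, 95% interval -0.80 to -0.19), with an unadjusted p of 0.00656 and an adjusted p of 0.873 in edgeR's quasi-likelihood test with Benjamini-Hochberg adjustment over all genes. Exchanging the R02046 libraries gave -0.45 (SE 0.14, adjusted p = 0.182 in the same edgeR test), and leaving R02046 out gave -0.62 (SE 0.11, adjusted p = 0.149). The TRIM21 promoter is the one whose tandem GAAA pattern crosses the transcript start, and a link between the pattern and these values was not tested.

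TRIM38, which limits Toll-like receptor and TNF signaling, was at 189, 244, 127 and 155 CPM with uLPS and at 128, 153, 138 and 139.8 CPM with MRS2578, in the same order of animals. Values with MRS2578 lay close together (139.6 ± 10.3 CPM, SD, n = 4), whereas those with uLPS alone spread more widely (179 ± 50.1 CPM, SD, n = 4), and the groups overlapped only through the uLPS library of R02046, which was the lowest of all 8. Its log2 fold change was -0.32 (SE 0.15, edgeR adjusted p = 0.873), and -0.38 (SE 0.12, edgeR adjusted p = 0.173) with the R02046 libraries exchanged and -0.46 (SE 0.13, edgeR adjusted p = 0.242) without R02046. As labelled without R12016 it was -0.20.

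For TRIM14, a mitochondrial adaptor of antiviral signaling, uLPS gave 253, 354, 199 and 276 CPM, and uLPS with MRS2578 gave 179, 249, 244 and 289 CPM. R07110 and R12016 were lower with MRS2578 by 0.50 and 0.51 on the log2 scale, whereas R02046 and R14143 were higher by 0.29 and 0.069. The fitted log2 fold change was -0.16 (SE 0.16) as labelled, -0.31 (SE 0.11, edgeR adjusted p = 0.235) with the R02046 libraries exchanged and -0.31 (SE 0.14, edgeR adjusted p = 0.419) without R02046. As labelled, it was -0.051 without R07110 and -0.044 without R12016. In RefSeq, 392 of the 7358 exonic bases of TRIM14 overlap NANS on the opposite strand. The study names a directional library kit, whereas the strand setting of the counting is not given in the sources used here.

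TRIM56, a ligase of cytosolic nucleic acid sensing, ranged from 35.3 to 84.5 CPM with uLPS and from 41.4 to 55.9 CPM with MRS2578. The differences within R07110, R12016, R02046 and R14143 were -0.20, -0.59, 0.23 and -0.35 on the log2 scale, so that R02046 stood opposite to the other animals. As labelled the log2 fold change was -0.23 (SE 0.14), and with the R02046 libraries exchanged it was -0.34 (SE 0.10, edgeR adjusted p = 0.156). It was -0.38 (SE 0.12, edgeR adjusted p = 0.275) without R02046, and -0.11 as labelled without R12016.

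The other interferon-inducible members had log2 fold changes nearer to 0. TRIM25, the RIG-I ligase and the member with the highest CPM, measured 274, 354, 224 and 263 CPM with uLPS and 267, 419, 224 and 253 CPM with MRS2578. Both R12016 libraries were the highest and both R02046 libraries the lowest. The log2 fold change was 0.039 with a 95% interval from -0.19 to 0.27 as labelled, 0.038 with the R02046 libraries exchanged and 0.051 without R02046.

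TRIM22, an interferon-induced antiviral factor, measured 280.3, 299, 187 and 214 CPM with uLPS and 248, 259, 221 and 241 CPM with MRS2578. It was lower with MRS2578 in R07110 and R12016 and higher in R02046 and R14143, and the groups overlapped. Its log2 fold change was 0.0083 (95% interval -0.26 to 0.28) as labelled and -0.11 (95% interval -0.34 to 0.11) with the R02046 libraries exchanged, and -0.069 (SE 0.12) without R02046.

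The restriction factor TRIM5 ranged from 40.6 to 85.2 CPM with uLPS and from 55.2 to 82.8 CPM with MRS2578. In R14143 it was higher with MRS2578 by 0.44 on the log2 scale and in R07110 lower by 0.33, and the fitted log2 fold change was 0.021 (95% interval -0.30 to 0.34) as labelled, 0.0083 exchanged and 0.020 without R02046. TRIM26 ranged from 62.1 to 123 CPM over all 8 libraries, with the highest values in both R12016 libraries, and its log2 fold change was 0.045 (95% interval -0.17 to 0.26) as labelled, -0.029 exchanged and 0.010 without R02046.

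**Figure D3:**
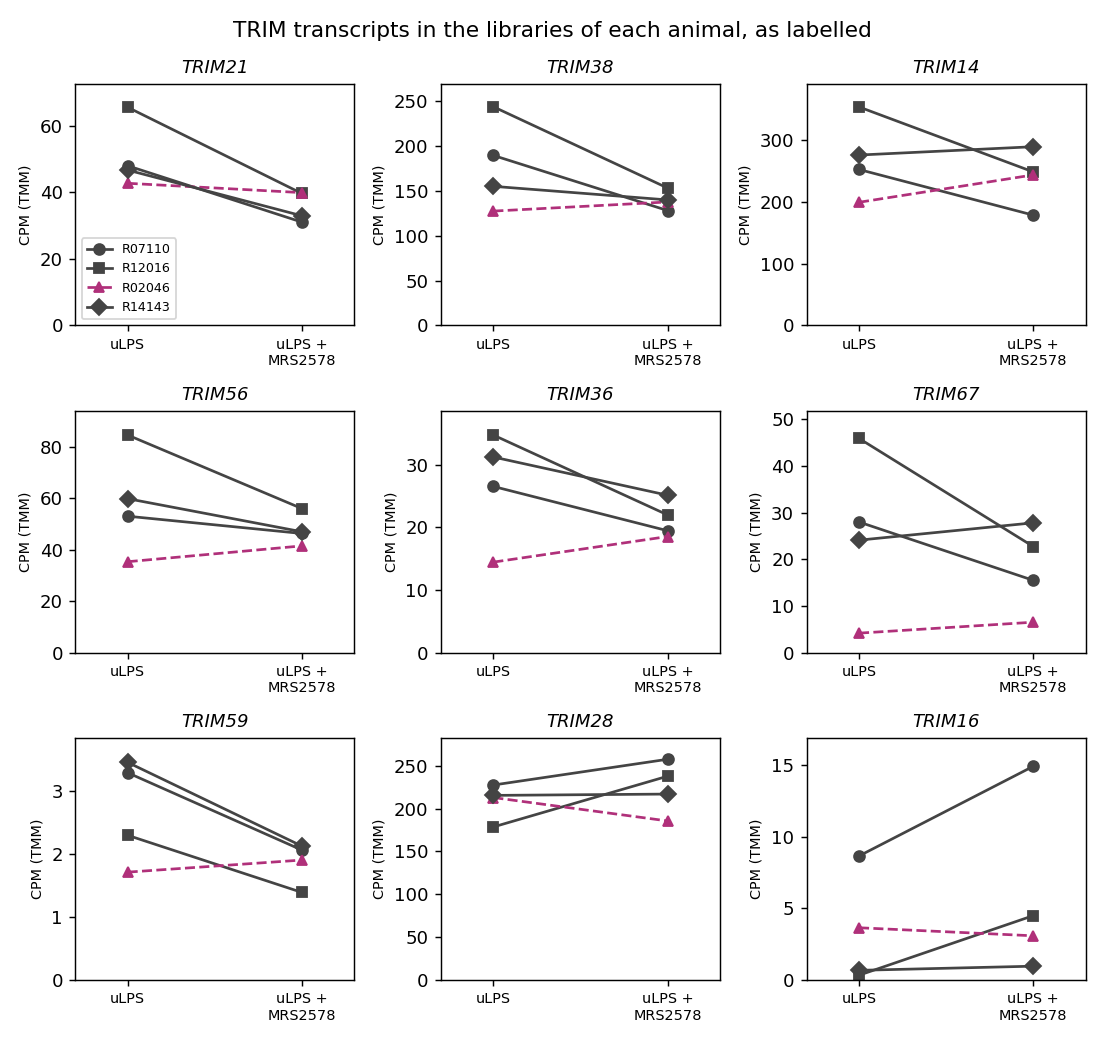
CPM (TMM-scaled, axes from 0) of 9 TRIM genes in the 2 libraries of each animal, as labelled, with 1 line per animal and R02046 dashed in magenta. For TRIM21 all 4 lines run down, whereas for TRIM38, TRIM56, TRIM36 and TRIM59 the R02046 line runs up and the other 3 run down.

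Lists of TRIM genes that act further along the signaling pathways were described in the same way. The 8 tested members acting on Toll-like receptor or NF-κB signaling were TRIM8, TRIM13, TRIM21, TRIM23, TRIM27, TRIM38, TRIM45 and TRIM59. Of these, 6 lay below 0 as labelled, exchanged and without R02046, beside 52.4%, 49.8% and 50.6% of all genes. The median log2 fold changes of the 8 were -0.087, -0.21 and -0.18, beside -0.011, 0.0016 and -0.0039 over all genes. None of the 8 was called, beside 0%, 0.628% and 0% of all genes. Of 6 tested members acting on RNA or DNA sensing (TRIM4, TRIM14, TRIM25, TRIM32, TRIM56 and TRIM65), 2 lay below 0 in all 3 cases, beside the same shares of all genes. The medians of the 6 were 0.060, 0.033 and 0.067, and none was called, beside the same 0%, 0.628% and 0% of all genes. These lists share members with the interferon-inducible list.

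TRIM59, a ligase anchored in the endoplasmic reticulum membrane, was a low member, with 3.29, 2.30, 1.71 and 3.46 CPM with uLPS and 2.06, 1.39, 1.90 and 2.12 CPM with MRS2578. R07110, R12016 and R14143 were lower with MRS2578 by a like amount (-0.65, -0.68 and -0.67 on the log2 scale), whereas R02046 was higher by 0.14. Its log2 fold change of -0.54 (SE 0.25, 95% interval -1.14 to 0.057) was the lowest of the family as labelled, and rested on 16 to 108 counts per library. With the R02046 libraries exchanged it was -0.61 (SE 0.24, edgeR adjusted p = 0.255), and without R02046 it was -0.69 (SE 0.24, edgeR adjusted p = 0.318).

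TRIM8, which promotes NF-κB activation, ranged from 72.4 to 109.8 CPM over the 8 libraries with a log2 fold change of -0.012 (95% interval -0.24 to 0.21) as labelled, -0.065 exchanged and -0.051 without R02046. TRIM27, a repressor of NF-κB and IRF signaling, ranged from 63.1 to 86.3 CPM with a log2 fold change of 0.033 (95% interval -0.22 to 0.28) as labelled, 0.15 exchanged and 0.12 without R02046. TRIM4, a RIG-I ligase, was among the 5 highest log2 fold changes as labelled at 0.23 (SE 0.12), at 0.027 (SE 0.14) with the R02046 libraries exchanged and at 0.16 (SE 0.12) without R02046. Its level differed between animals, with 12.1 and 16.9 CPM in the R02046 libraries and 19.01 to 36.9 CPM in the other 6.

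Chromatin cofactors of the family, which carry a PHD finger and a bromodomain, were represented by TRIM24, TRIM28 and TRIM33. TRIM66 was below the count threshold. TRIM28, the corepressor recruited by KRAB zinc finger proteins, measured 228, 179, 213 and 216 CPM with uLPS and 258, 238, 186 and 217 CPM with MRS2578. It was higher with MRS2578 in R07110 and R12016, nearly equal in R14143 and lower in R02046, with a log2 fold change of 0.10 (95% interval -0.18 to 0.39) as labelled and 0.20 (95% interval -0.011 to 0.41) with the R02046 libraries exchanged. It was 0.20 (SE 0.11, edgeR adjusted p = 0.505) without R02046, and 0.0022 as labelled without R12016.

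TRIM33, a regulator of SMAD signaling, measured 28.9, 33.1, 18.1 and 30.5 CPM with uLPS and 22.0, 21.0, 20.7 and 28.9 CPM with MRS2578. R07110 and R12016 were lower with MRS2578 by 0.39 and 0.66 on the log2 scale, R14143 differed by -0.076 and R02046 by 0.20. Its log2 fold change was -0.24 (SE 0.16) as labelled and -0.33 (SE 0.13, edgeR adjusted p = 0.251) with the R02046 libraries exchanged. It was -0.37 (SE 0.15, edgeR adjusted p = 0.357) without R02046, and -0.098 as labelled without R12016. TRIM24, a nuclear receptor cofactor, was highest in the R02046 libraries with 33.4 and 38.6 CPM, against 20.9 to 25.1 CPM in the other 6, and had a log2 fold change of 0.13 (95% interval -0.12 to 0.39) as labelled, 0.031 exchanged and 0.11 without R02046.

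The neuronal and cytoskeletal members TRIM67 and TRIM36, both of class C-I, were among the 5 lowest log2 fold changes as labelled. TRIM46, the other tested member of that class, was at 0.0031 (SE 0.29, 95% interval -0.69 to 0.69). That interval covers the values of TRIM67 and TRIM36, and TRIM46 rested on 7 to 61 counts per library. TRIM46 was at -0.018 exchanged and -0.0091 without R02046. TRIM67, known from axon guidance, measured 28.0, 45.9, 4.17 and 24.1 CPM with uLPS and 15.5, 22.7, 6.51 and 27.8 CPM with MRS2578. R02046 was far below the other animals in both libraries, and R07110 and R12016 were lower with MRS2578 by 0.85 and 1.01 on the log2 scale while R02046 and R14143 were higher by 0.63 and 0.21. The log2 fold change was -0.33 (SE 0.28, 95% interval -0.997 to 0.34) as labelled and -0.57 (SE 0.21, edgeR adjusted p = 0.234) with the R02046 libraries exchanged. It was -0.56 (SE 0.25, edgeR adjusted p = 0.410) without R02046, and as labelled -0.11 without R07110 and -0.095 without R12016.

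TRIM36, a microtubule-associated ligase, measured 26.5, 34.7, 14.4 and 31.2 CPM with uLPS and 19.4, 22.0, 18.5 and 25.1 CPM with MRS2578. The R02046 libraries were the lowest of each condition and the only pair in which the value with MRS2578 was higher. Its log2 fold change was -0.28 (SE 0.18) as labelled, -0.45 (SE 0.11, edgeR adjusted p = 0.113) with the R02046 libraries exchanged and -0.47 (SE 0.12, edgeR adjusted p = 0.224) without R02046. As labelled without R12016 it was -0.16.

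In the exchanged assignment, leaving out R14143 as well changed the calls. Then 917 of 11915 genes (7.7%) were called by edgeR's quasi-likelihood test, 518 of them lower (4.35%), and 2 of 36 TRIM members were called, both lower, a share near the background. The 2 members were TRIM67, which fell by 0.87 on the log2 scale (SE 0.14, Benjamini-Hochberg adjusted p = 0.0154), and TRIM14, which fell by 0.43 (SE 0.088, adjusted p = 0.0289). In both genes R14143 was the animal outside R02046 with higher values under MRS2578. R14143 also had the highest fibroblast marker sum with uLPS alone (982 CPM), and the part of this in the result was not tested. Leaving out R07110 in place of R14143 gave 0 called genes of 11754 (0%) and leaving out R12016 gave 5 of 11915 (0.042%), with 0 members in either case.

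The largest positive log2 fold change belonged to TRIM16, a PRY-SPRY member linked to oxidative stress and the clearance of damaged lysosomes. It measured 8.65, 0.319, 3.64 and 0.661 CPM with uLPS and 14.9, 4.48, 3.07 and 0.951 CPM with MRS2578. In R12016 it went from 5 counts in the uLPS library to 71 counts with MRS2578, a difference of 3.43 on the log2 scale, compared with 0.78 for R07110, 0.46 for R14143 and -0.23 for R02046. The fitted log2 fold change was 0.97 (SE 0.50, 95% interval -0.23 to 2.17) as labelled, 1.03 (SE 0.40, edgeR adjusted p = 0.260) with the R02046 libraries exchanged and 1.31 (SE 0.50, edgeR adjusted p = 0.346) without R02046. It was 0.46 as labelled without R12016.

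TRIM11, a ligase that promotes the removal of misfolded proteins, was higher with MRS2578 in all 4 animals as labelled, by 0.074 to 0.38 on the log2 scale. It measured 28.6 ± 2.49 CPM (SD, n = 4) with uLPS and 33.7 ± 5.74 CPM (SD, n = 4) with MRS2578, and the groups overlapped. The log2 fold change was 0.23 (SE 0.11, 95% interval -0.024 to 0.48) with an adjusted p of 0.873 in edgeR's quasi-likelihood test as labelled, 0.20 (SE 0.11, adjusted p = 0.429) exchanged and 0.28 (SE 0.11, adjusted p = 0.361) without R02046.

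TRIM68, known as an autoantigen related to TRIM21, had the smallest spread between animals within a condition as labelled. It measured 8.02 to 8.69 CPM with uLPS and 8.81 to 10.6 CPM with MRS2578, so that the groups did not overlap as labelled. R02046 held both the lowest and the highest value, and its difference of 0.40 on the log2 scale compared with 0.031 to 0.12 in the other animals. The log2 fold change was 0.15 (SE 0.15) as labelled and -0.033 (SE 0.15) with the R02046 libraries exchanged, and 0.070 (SE 0.15) without R02046. TRIM35, a ligase linked to pyruvate kinase regulation, ranged from 18.4 to 31.7 CPM with a log2 fold change of 0.19 (95% interval -0.14 to 0.52), of 0.0032 with the R02046 libraries exchanged and of 0.13 without R02046.

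Spread between animals and differences between conditions were described for each member, with the conditions as labelled. The measures were the standard deviation (SD) of log2 CPM over animals within a condition and the mean absolute difference within an animal. These measures are unlike, so their sizes do not tell which source of variation is larger. The median SD between animals was 0.25 for the 37 members and 0.30 for all genes tested, and the median absolute difference within an animal was 0.19 and 0.27. TRIM16 had the largest SD between animals, 1.80, with a 46.8-fold range over the 8 libraries, followed by TRIM67 with 1.21 and a 10.997-fold range. TRIM68 had the smallest SD, 0.089. TRIM41 differed least within an animal, by 0.0094 on average, with a log2 fold change of 0.0033 and a 95% interval from -0.23 to 0.24.

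**Figure D4:**
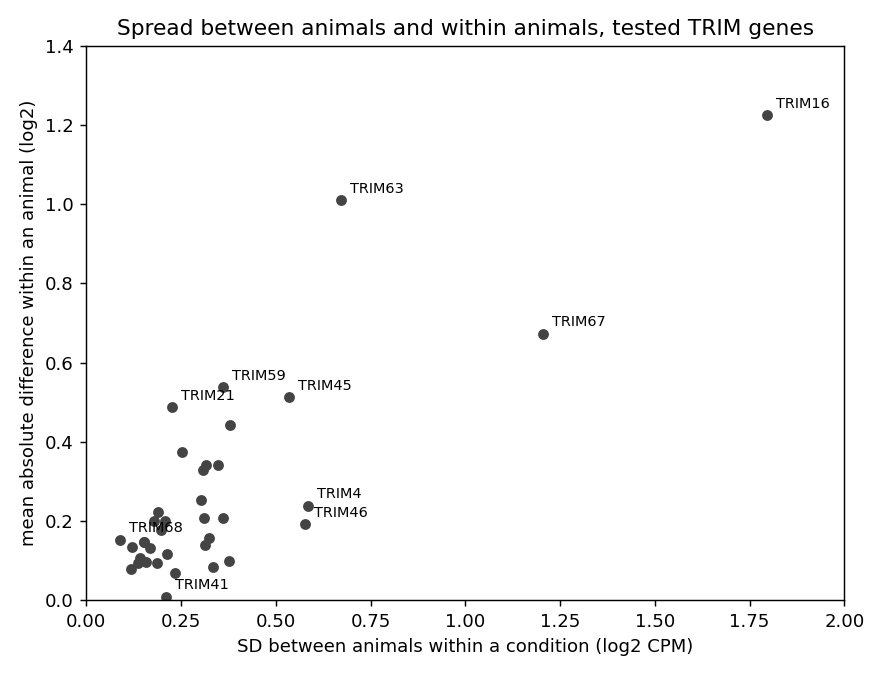
Mean absolute within-animal log2 difference between the conditions (vertical) against the SD of log2 CPM between animals within a condition (horizontal), 1 point per tested TRIM gene. Conditions are as labelled. TRIM16 (SD 1.80) and TRIM67 (SD 1.21) lie far to the right, and TRIM41 lies at the bottom.

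A list of 27 genes outside the symbol rule was also counted. It held substrates and other partners of TRIM proteins, ubiquitin-conjugating enzymes, and TRIM family genes with other symbols. Of these, 23 were tested. By edgeR's quasi-likelihood test, 0 were called as labelled, with the R02046 libraries exchanged or without R02046, where 0%, 0.628% and 0% of all genes were called. Log2 fold changes lay below 0 for 12, 14 and 11 of the 23 in the same order, beside 52.4%, 49.8% and 50.6% of all genes. At an unadjusted p under 0.05 there was 1 as labelled (5.24% of all genes), 7 with the libraries exchanged (16.4%) and 4 without R02046 (13.6%). The 1 as labelled was MEFV, which was higher with MRS2578 at 1.00 (SE 0.41, edgeR adjusted p = 0.873). MEFV was at 0.39 exchanged and 0.77 without R02046. With the libraries exchanged, 6 of the 7 were lower with MRS2578, where 9.53% of all genes were lower and 6.9% higher at this threshold. The 1 that was higher was IKBKG, at 0.22 (SE 0.089, edgeR adjusted p = 0.272). MID2 is a TRIM family gene that only the symbol rule leaves out. It had a log2 fold change of -0.44 (SE 0.31, edgeR adjusted p = 0.882) as labelled, -0.84 (SE 0.14, edgeR adjusted p = 0.0512) exchanged and -0.82 (SE 0.15, edgeR adjusted p = 0.164) without R02046. The TRIM25 and TRIM4 substrate DDX58 (RIG-I) was at -0.39, -0.53 and -0.61 in the same order (edgeR adjusted p = 0.873, 0.0993 and 0.194). For TAB2, listed as a partner of TRIM38, these were -0.18, -0.40 and -0.38 (edgeR adjusted p = 0.903, 0.0968 and 0.249).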

How the data were processed

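Poly(A)-selected RNA of 8 libraries was sequenced on an Illumina NovaSeq. The authors deposited read counts per Ensembl gene. The study's methods name fastp, STAR, SAMtools and HTSeq with the genome build Mmul_10, whereas the submitters' processing notes name Trimmomatic 0.30, TopHat2 2.0.14, SAMtools 1.3 and HTSeq 0.6.1p1. Strand setting and annotation release are not given in the sources used here. Reads were counted where they mapped to 1 place, which lowers near-identical copies, and strand can move counts between overlapping genes.

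From these counts, CPM (TMM) and log2 CPM (prior count 2) were computed in R 4.3.3 with edgeR 4.0.16. Genes with 10 or more counts in at least 4 libraries entered edgeR's quasi-likelihood test, with Benjamini-Hochberg adjustment over 12267 genes and the animal as a block. Libraries of 1 animal come from the same animal, and their deviations from the group means correlated at 0.459 to 0.59. SE was taken from the F statistic. DESeq2 1.42.0, other filters, no block, and leaving out animals served as alternatives. Exon lengths, positions and promoters came from RefSeq (Mmul_10), with a length for 53 members. Protein features were not analysed here.

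The members and lists were chosen with earlier results of these data known. Named members were the 8 highest per length, the 5 highest and 5 lowest log2 fold changes, and the tested interferon-inducible and chromatin members. TRIM6, TRIM41, TRIM63, MID2, DDX58, TAB2, MEFV and IKBKG were named after their values were seen. Of 35432 rows, 11503 had no symbol.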

Additional observations from a re-analysis of the deposited data

Results flagged for a closer look

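Over 66 sets of 4 values (each named member in each condition, and its within-animal differences), 5 held a value whose gap to its nearest neighbour exceeded Dixon's 95% critical value as a share of the range; chance gives about 1 in 20. TRIM35 was highest in the uLPS library of R07110 (31.7 CPM). With MRS2578, TRIM68 (10.6 CPM) and TRIM24 (38.6 CPM) were highest in R02046, and TRIM33 (28.9 CPM) in R14143. The within-animal difference of TRIM59 was 0.145 on the log2 scale in R02046, apart from the other 3 animals. The cause was not tested.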

How the results depend on the processing

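No TRIM member was called in the main comparison or under any of 10 other settings, and 14 of 22 named members kept their sign in all of them. Over all genes, 0 were called as labelled, 1 by the DESeq2 Wald test and 77 with the R02046 libraries exchanged. Leaving out each other animal from the exchanged assignment (chosen after seeing the data) gave 0 to 917 genes and 0 to 2 members (at most 7.7% of genes, and 2 of 36 members), with TRIM14 at -0.43 to -0.23 and TRIM67 at -0.87 to -0.38 on the log2 scale; edgeR's earlier quasi-likelihood estimation gave 40 genes. Without the replicate block, no call changed, and 255 in place of 643 genes had an unadjusted p under 0.05; TRIM22 moved to -0.016 and TRIM5 to -0.014. With the libraries exchanged, TRIM72 moved to 0.0039, TRIM22 to -0.11, TRIM68 to -0.033 and TRIM26 to -0.029. Leaving out 1 animal as labelled gave -0.069 to 0.083 for TRIM22, -0.025 to 0.074 for TRIM25, -0.051 to 0.036 for TRIM8, -0.019 to 0.12 for TRIM27 and -0.11 to 0.14 for TRIM5. Without R07110, R12016, R02046 or R14143 in turn, TRIM67 lay between -0.56 and -0.095, TRIM14 between -0.31 and -0.044, TRIM33 between -0.37 and -0.098 and TRIM28 between 0.0022 and 0.20. The cause was not tested. With 4 animals and 3 counts at 0.0915 to 0.325 CPM, differences of TRIM63, TRIM46, TRIM16 and TRIM59 rest on few reads.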
